A study of Mus musculus with 6 samples.

Results

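Homeostatic microglia of the mouse subventricular zone (SVZ) were compared between uninjured tissue and tissue taken 7 days after photothrombotic ischemia (PT, a light-induced cortical stroke), written PT D7. The cells were those that the deposited cell table labels as the homeostatic subcluster of microglia, in the 2 uninjured and the 2 PT D7 libraries. There were 174 such cells, 124 uninjured and 50 at PT D7, of 416 microglia and 658 cells in the whole series. The comparison asks whether cells that carry the homeostatic label after injury equal those of uninjured tissue. The study sorted microglia and neural stem and progenitor cells (NSPCs) from the SVZ, and counted mRNA molecules per cell by their unique molecular identifiers (UMIs). Every library came from adult Nestin-CreERT2:R26-yfp mice on a C57BL/6N background, in which tamoxifen turns on a yellow fluorescent protein in cells that use the Nestin promoter. All of these mice had received tamoxifen, uninjured ones included, and the microglia were gated as CD11b+ with low CD45, not by the reporter. The remaining 2 libraries, from 1 day after PT (PT D1), held 0 and 1 homeostatic cells and were left out. How many mice went into a library and which libraries shared a plate were not stated in the sources. The 2 libraries of a condition may come from 1 plate, so library, plate and condition cannot be told apart.

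Microglia are the resident macrophages of the brain. In healthy tissue they express a recognised set of surface receptors and regulators, among them the fractalkine receptor Cx3cr1 and the purinergic receptor P2ry12, which are known to be reduced when the cells take up an activated or disease-associated state. In that state they are known to raise lipid-handling and lysosomal genes such as Apoe and cathepsins.

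The share of microglia that carried the homeostatic label was 76.1% (54 of 71 cells, exact 95% interval 64.5 to 85.4%) and 83.3% (70 of 84, 73.6 to 90.6%) in the uninjured libraries. At PT D7 it was 33.3% (18 of 54, 21.1 to 47.5%) and 53.3% (32 of 60, 40.0 to 66.3%). Both PT D7 libraries lay below both uninjured ones, with means of 43.3% ± 14.1 and 79.7% ± 5.15 (SD, n = 2 libraries each). An exact two-sided permutation test over the libraries gave p = 0.333, the smallest that 2 libraries against 2 can give. The other microglia at PT D7 were mainly disease-associated cells, 16 and 13 against 1 and 5 in uninjured tissue, and cells of unknown function, 20 and 13 against 16 and 6.

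**Figure D1:**
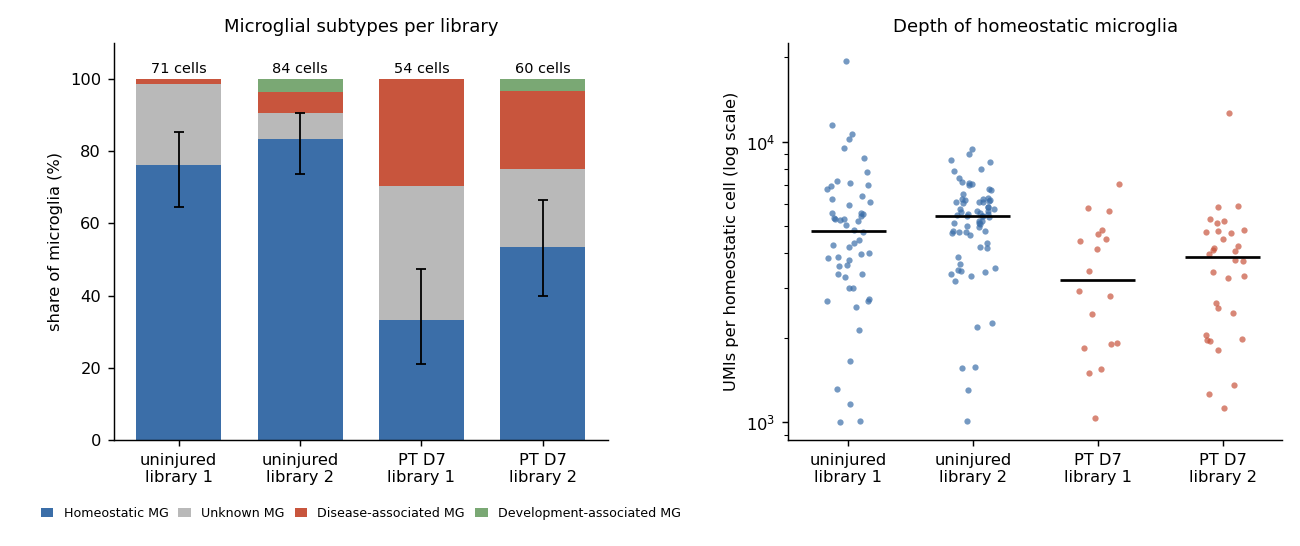
Left, share of microglia (%) in each subtype of the deposited labels, 1 bar per library, with exact 95% intervals on the homeostatic share, which was 76.1% and 83.3% in uninjured libraries and 33.3% and 53.3% at PT D7. Right, UMIs of each homeostatic cell on a log scale, with the median of each library as a line, lower at PT D7 (3202 and 3879) than in uninjured tissue (4793 and 5448).

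Core markers of microglia were present in all 4 libraries. Of 9 core microglial genes none was at 0 in any library, and their summed level ran from 14360 to 17661 CPM (counts per 1000000 UMIs). Homeostatic cells at PT D7 were shallower, with medians of 3202 and 3879 UMIs per cell against 4793 and 5448, and 33.3% and 21.9% of them held under 2000 UMIs against 9.26% and 5.71%. Summed UMIs were 279478 and 370532 for the uninjured libraries and 62454 and 122840 for PT D7. With each cell thinned at random to 1000 UMIs, the median number of genes detected was 502 and 503 against 525 and 499. The median mitochondrial share of the cells before thinning was 7.96% and 7.34% against 6.71% and 8.86%. Genes were therefore compared on UMIs summed per library and scaled by library size (TMM), and the CPM below are on that scale unless called unscaled. The scaled CPM are per 1000000 UMIs of the genes tested, which held 236080 and 312041 UMIs in uninjured libraries and 52790 and 104633 at PT D7. Unscaled CPM are per 1000000 UMIs of all genes, so the scaled values are higher.

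Of 2618 genes tested, 4 passed an adjusted p of 0.05 (0.153%), by the quasi-likelihood test of edgeR adjusted with the Benjamini-Hochberg method over all of them. Lgals3bp, a secreted glycoprotein that binds galectins, was higher at PT D7, and Ttr, Enpp2 and Igf2, genes of the choroid plexus epithelium, were lower. At an unadjusted p under 0.05 there were 89 genes higher (3.4%) and 89 lower (3.4%), and the median log2 fold change of all genes tested was 0.00. DESeq2 called 2 genes, Ttr and Enpp2, and limma voom called 0, with 186 genes at an unadjusted p under 0.05. Without uninjured library 2 the count was 9, without PT D7 library 1 it was 44 and without PT D7 library 2 it was 7. These last 3 fits tested 2058, 4525 and 4496 genes and left 1 library in a group, so their counts are not like the 4 of 2618. With 2 libraries a group many genes fall on separate sides without any call: both PT D7 libraries lay above both uninjured ones for 433 genes (16.5%) and below for 500 (19.1%).

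**Figure D2:**
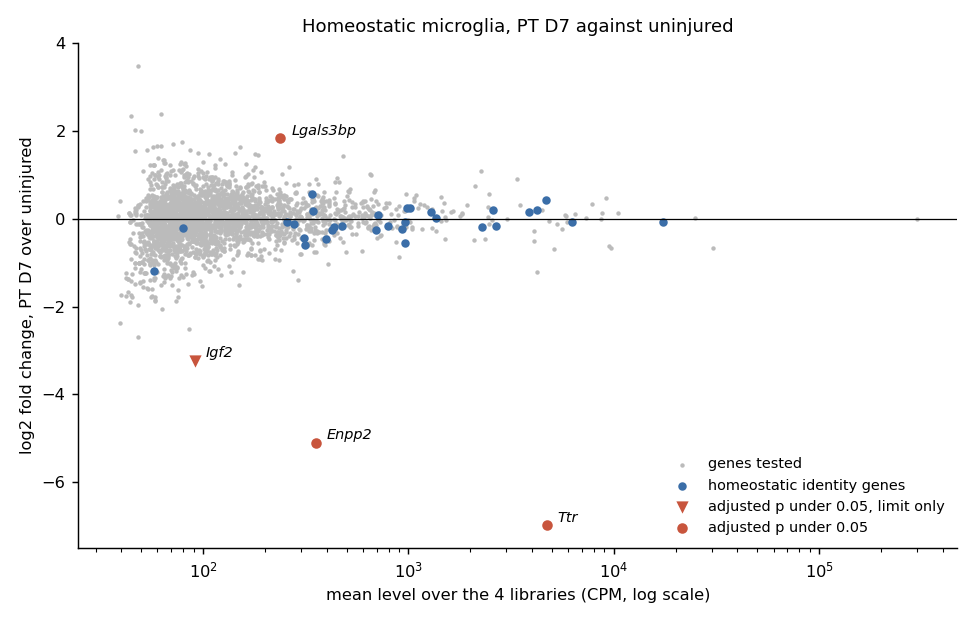
Log2 fold change of PT D7 over uninjured homeostatic microglia against the mean CPM of the 4 libraries (log scale), 1 point per gene tested. Genes that define the homeostatic state (blue) lie around 0, Lgals3bp is the called gene above the line, and Igf2, at 0 UMIs at PT D7, is drawn as a triangle at its limit of 9.41-fold lower.

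None of 30 genes that define the homeostatic state was called, beside 4 of all 2618 genes (0.153%). At that share, 0 calls in a list this short is near the value for all genes. Cells entered by a label drawn from the same expression data, so closeness of the 30 genes may be partly set in advance. Of the 30 genes, 11 had a fold change above 0 and 19 below, and the median log2 fold change was -0.10 beside 0.00 over all genes. That median was -0.24 without PT D7 library 1 and -0.02 without PT D7 library 2, and it was below 0 under each of 18 alternatives (-0.31 to -0.02). Both PT D7 libraries lay above both uninjured ones for 5 of the 30 genes (16.7%, beside 16.5% of all genes) and below for 11 (36.7%, beside 19.1%). Cx3cr1 was 2796 and 2868 CPM in uninjured libraries and 2636 and 2390 CPM at PT D7 (log2 fold change -0.17, 95% interval -0.71 to 0.36). P2ry12, by which microglia sense extracellular nucleotides, was 2257 and 2577 against 2313 and 1946 CPM, so the conditions overlapped. Tmem119, a microglial surface protein, was 1273 and 1416 against 1775 and 1007 CPM, with the PT D7 libraries on either side of the uninjured ones.

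Gpr34, a lysophosphatidylserine receptor, was 1018 and 955 against 933 and 938 CPM, and the interval of its log2 fold change ran from -0.58 to 0.43. The 95% interval lay within 1 log2 unit either way for 23 of the 30 genes, so a doubling or halving of those 23 was outside their intervals. The same held for 586 of the 2618 genes tested (22.4%), since most are less abundant. Adora3, the adenosine A3 receptor, had the most negative value of the list (-1.18, interval -2.70 to 0.34) at 80.6 and 68.7 against 71.7 and 9.88 CPM.

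At an unadjusted p under 0.05 there were 2 members lower and 0 higher, beside 3.4% of all genes each way. The pair was chosen for mention after the values were seen. Tgfbr1, a receptor for the TGF-beta signal that maintains microglial identity, was 1137 and 1135 against 843 and 721 CPM (log2 fold change -0.55, standard error 0.25, edgeR adjusted p = 0.723). Cd33, a sialic acid receptor, was 369 and 386 against 251 and 247 CPM (-0.60, standard error 0.28, edgeR adjusted p = 0.723). Both were lower in both PT D7 libraries and neither passed the test. Across single cells, identity genes took a median of 5.30% and 4.75% of a cell's UMIs in uninjured libraries and 5.57% and 4.74% at PT D7. The lowest cell was at 0.294%, in uninjured library 2, and the highest at 10.3%.

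**Figure D3:**
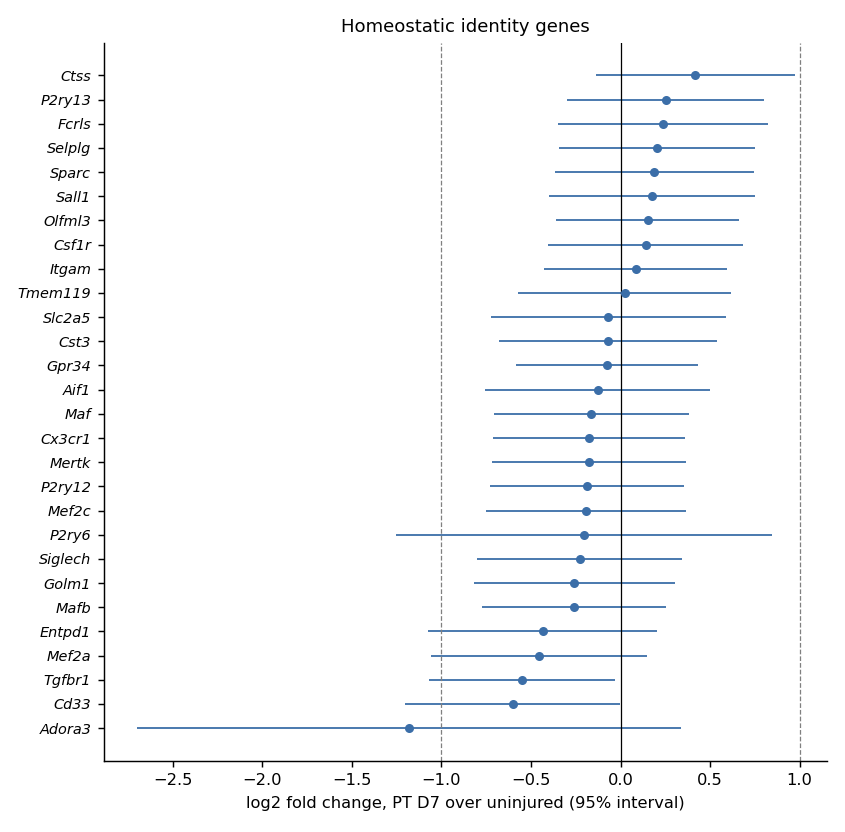
Log2 fold change with its 95% interval (edgeR) for 28 of the 30 homeostatic identity genes, PT D7 over uninjured. Points scatter around 0, and 22 of these 28 intervals lie between the dashed lines at -1 and 1.

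Lgals3bp was the called rise. Its level was 102 and 111 CPM in the uninjured libraries and 305 and 435 CPM at PT D7, so both PT D7 libraries stood above both uninjured ones. The log2 fold change was 1.83 (standard error 0.32, 95% interval 1.15 to 2.50, edgeR adjusted p = 0.0214), a 3.55-fold difference. The gene lies on chromosome 11 (118280716 to 118292918, minus strand, GRCm39) and is protein-coding in the GENCODE annotation. The counts behind it were low, 24 and 34 UMIs against 17 and 44. They were spread over cells, since at least 1 UMI was found in 18 of 54 (33.3%) and 23 of 70 (32.9%) uninjured cells and in 9 of 18 (50.0%) and 18 of 32 (56.3%) cells at PT D7, although the latter were shallower. In NSPCs the share of cells with a UMI was 12.5% and 6.78% in uninjured tissue and 20.0% and 13.1% at PT D7. At 1000 UMIs per cell the homeostatic shares were 11.1% and 11.4% against 22.2% and 28.1%. The call depended on the libraries, the depth and the test. It was lost without uninjured library 1 (log2 fold change 1.68) and without PT D7 library 2 (1.47). With 18 cells per library it was also lost (1.09, edgeR adjusted p = 0.569). The same held with every library thinned to the smallest (1.47, edgeR adjusted p = 0.380) and with DESeq2 (1.82, DESeq2 adjusted p = 0.504). The log2 fold change stayed between 1.09 and 1.99 over 17 alternatives, of which 8 called it.

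Lgals3bp belongs to a list of 30 disease-associated genes, of which 18 could be tested. It was the 1 member called, and 3 were at an unadjusted p under 0.05, all higher, where 3.4% of all genes were higher. Of the 18 genes, 13 had a fold change above 0 and 5 below. Both PT D7 libraries were higher for 5 (27.8%) and lower for 2 (11.1%), beside 16.5% and 19.1% of all genes. The median log2 fold change was 0.11 (0.04 without PT D7 library 1, 0.18 without PT D7 library 2). In disease-associated cells of the same PT D7 libraries Lgals3bp stood at 620 and 705 unscaled CPM, beside 272 and 358 in homeostatic ones. The clusters were drawn on these same genes, so the gap between the cell classes is a description. Apoe, the main apolipoprotein of brain lipid transport, was 1549 and 1645 against 1435 and 3802 CPM (log2 fold change 0.73, edgeR adjusted p = 0.723). PT D7 library 1 lay below and PT D7 library 2 above the uninjured libraries. A single cell held 35.8% of the Apoe UMIs of PT D7 library 2. Without the top cell of each library, Apoe was 1119 and 1208 against 1172 and 2241 unscaled CPM. Without PT D7 library 2 the log2 fold change was -0.19. Without PT D7 library 1 it was 1.23 (edgeR adjusted p = 0.00634). Disease-associated cells at PT D7 held 10206 and 13781 unscaled CPM of Apoe, against 1281 and 3134 in homeostatic cells.

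No other tested member of that list had an unadjusted p under 0.05 beside B2m, given below. Cd68, a lysosomal glycoprotein, was 390 and 363 against 377 and 415 CPM, and Cd52, a small surface glycopeptide, was 84.9 and 108 against 53.8 and 138 CPM. Timp2, a metalloproteinase inhibitor, had the most negative value, -0.48. Axl, a phagocytic receptor, had 3 and 1 UMIs in uninjured libraries and 0 and 2 at PT D7. Clec7a, the beta-glucan receptor dectin-1, had 3 and 2 against 0 and 1. Neither gene could be tested at these depths.

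**Figure D4:**
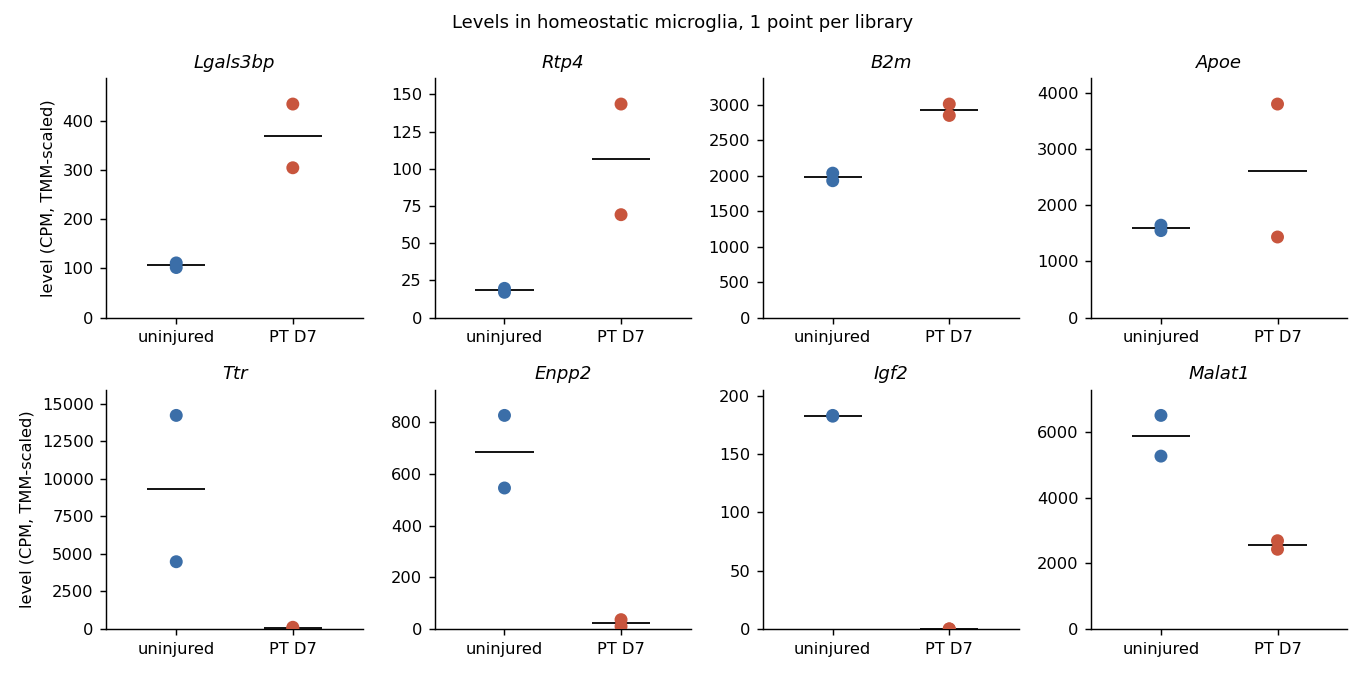
CPM of 8 genes in homeostatic microglia, 1 point per library and the mean of each condition as a line, every axis from 0. Lgals3bp, Rtp4 and B2m were higher in both PT D7 libraries, Apoe in 1 of the 2, and Ttr, Enpp2, Igf2 and Malat1 were lower in both.

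Of 10 interferon-response and MHC class I genes tested, none was called. At an unadjusted p under 0.05 there were 3 higher and 0 lower, beside 3.4% of all genes each way. B2m, the light chain of MHC class I, was 1931 and 2037 against 2852 and 3012 CPM (log2 fold change 0.56, edgeR adjusted p = 0.723). Rtp4, an interferon-induced chaperone of receptors, was 17.0 and 19.6 against 143 and 69.1 CPM, from 4, 6, 8 and 7 UMIs (log2 fold change 2.37, standard error 0.74, edgeR adjusted p = 0.593). H2-D1, an MHC class I heavy chain that is close in sequence to other class I genes and was picked after its value was seen, was 250 and 265 against 287 and 622 CPM. Both PT D7 libraries were above both uninjured ones for these 3 genes, 3 of 10 in the list (30.0%) beside 16.5% of all genes. Lower in both was 1 of 10 (10%), beside 19.1% of all genes. The median log2 fold change was 0.11, but 0.36 without uninjured library 2, 0.27 without PT D7 library 1 and 0.24 without uninjured library 1. It turned to -0.08 with at least 10 UMIs in every library and to -0.09 without the cells that held choroid plexus genes, described below. Psmb8, an immunoproteasome subunit, had the most negative value, -0.20, and 16 of 26 members in the table were too low to test.

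The 3 called falls were genes of the choroid plexus, the epithelium that secretes cerebrospinal fluid and lies in the ventricle beside the SVZ. Ttr, the thyroxine carrier transthyretin, was 14236 and 4480.0 CPM in uninjured libraries and 17.9 and 109 CPM at PT D7 (log2 fold change -6.97, standard error 0.63, edgeR adjusted p = 2.08e-05). Enpp2, the lysophospholipase autotaxin (chromosome 15, 54701324 to 54816288, minus strand), was 827 and 546 against 35.9 and 9.88 CPM (-5.10, standard error 0.53, edgeR adjusted p = 6.94e-05). Igf2, a growth factor (chromosome 7, 142204503 to 142220694, minus strand), had 43 and 56 UMIs in uninjured libraries and 0 and 0 at PT D7. Pooled over the libraries of each condition it was at least 9.41-fold lower, taking 3 UMIs as the limit of a count of 0 (edgeR adjusted p = 0.00494).

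Ttr was not particular to homeostatic cells. Ttr UMIs were found in 53 of 54 and 70 of 70 homeostatic cells of uninjured tissue, in 16 of 16 and 59 of 59 NSPCs and in 16 of 16 and 6 of 6 microglia of unknown function there. At PT D7 they were found in 1 of 18 and 5 of 32 homeostatic cells and in 3 of 15 and 10 of 61 NSPCs. The median uninjured homeostatic cell held 10 and 16 Ttr UMIs, and 1 cell of uninjured library 1 held 2389 of the 3355 in that library (71.2%). Without that cell the library stood at 3714 unscaled CPM, beside 3697 for all cells of library 2. Over a list of 14 choroid plexus genes, drawn up after the Ttr values were seen, the summed unscaled level was 13310 and 4477 CPM against 48.0 and 97.7 CPM, and 12 of the 14 genes were at 0 in each PT D7 library. Without Ttr it was 1306 and 780 against 32.0 and 8.14 CPM. In 5 and 28 uninjured cells, and in 0 and 0 at PT D7, 3 or more of these genes other than Ttr were present. Without those cells, an alternative chosen after seeing the data, Ttr was the 1 gene called (log2 fold change -5.48). Enpp2 was then at -4.06 and Lgals3bp at 1.77, beside -5.10 and 1.83 with all cells, each with an edgeR adjusted p of 0.119. Outside the choroid plexus list, Myh11 and Ptgds, picked after their values were seen, had 49 and 38 UMIs in uninjured tissue and 0 at PT D7. Both were among the 14 genes called without a filter on low counts. The part of choroid plexus RNA in the other differences was not tested.

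Marker genes of other cell types were found in most homeostatic cells of every library. At least 3 of 81 such genes, choroid plexus genes not among them, were present in 49 of 54 and 70 of 70 uninjured cells. At PT D7, where cells were shallower, this held for 16 of 18 and 29 of 32. Markers of border-associated macrophages, which live at brain surfaces and vessels, summed to 476 and 618 unscaled CPM against 144 and 383, with Mrc1 at 34 UMIs in uninjured tissue and 0 at PT D7. Most UMIs of that sum were of Cbr2 (64 and 105 against 4 and 31) and Stab1 (35 and 59 against 4 and 13). Oligodendrocyte markers were 794 and 783 against 560 and 1929 unscaled CPM. Neuroblast and progenitor markers were 254 and 675 against 304 and 757 unscaled CPM. Astrocyte and quiescent stem cell markers were 437 and 688 against 432 and 594 unscaled CPM. The markers of monocytes (24.4 to 64.0 unscaled CPM), neutrophils (208 to 256), lymphocytes (16.3 to 48.0), endothelial cells (14.3 to 80.1), ependymal cells (0 to 37.8) and erythrocytes (16.0 to 32.6) were low in all 4 libraries. The neutrophil sum was almost only Csf3r, with 58 and 94 UMIs against 13 and 28, where the whole list had 59 and 95 against 13 and 28. Sex-linked genes varied between libraries, and the study used mice of both sexes. Xist, of the X chromosome, had 17 and 44 UMIs in uninjured libraries and 6 and 11 at PT D7. The Y-linked Ddx3y had 20 and 20 against 12 and 0, and the Y-linked Eif2s3y 8 and 11 against 2 and 5, so both kinds of transcript were found in every library.

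Of the uncalled genes, Malat1 and Ddit4 had the lowest adjusted p, and both were lower at PT D7. Malat1, a nuclear long non-coding RNA on chromosome 19 (5845717 to 5853602, minus strand), was 6513 and 5271 against 2690.1 and 2429 CPM (log2 fold change -1.20, standard error 0.27, edgeR adjusted p = 0.193). Both PT D7 libraries were below both uninjured ones, and the fold change stayed between -1.42 and -1.11 over 18 alternatives. It was called in 7 of these, among them the fit without PT D7 library 1 (edgeR adjusted p = 0.0107), cells thinned to 1000 UMIs (0.0373) and cells with at most 10% mitochondrial UMIs (0.0272), and the adjusted p over all 18 ran from 4.98e-05 to 0.514. Unscaled Malat1 was also 3855 and 4397 CPM in uninjured microglia of unknown function and 1495 and 1696 CPM in those of PT D7. Ddit4, an inhibitor of mTOR signalling induced by stress and glucocorticoids, was 149 and 147 against 17.9 and 29.6 CPM (-2.51, standard error 0.57, edgeR adjusted p = 0.193).

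Of 9 glucocorticoid-response genes tested, none was called. At an unadjusted p under 0.05 there were 3 lower and 0 higher, where 3.4% of all genes were lower. Both PT D7 libraries were higher for 3 of the 9 genes (33.3%) and lower for 3 (33.3%), beside 16.5% and 19.1% of all genes. The median was 0.03. That median ran from -1.02 without PT D7 library 2 (11 genes tested) to 0.37 without uninjured library 2 (8 genes tested). The 3 lower genes were Ddit4, given above, Fkbp5 and Tsc22d3. Fkbp5, a co-chaperone of the receptor, was 195 and 242 against 89.7 and 69.1 CPM. Tsc22d3, which encodes the anti-inflammatory protein GILZ, was 93.3 and 141 against 17.9 and 49.4 CPM. The last pair was picked after the values were seen. Other members had values above 0 or between libraries of the other condition: Mt1, a metallothionein, was 93.3 and 150.4 against 197 and 207 CPM, and Sgk1, a kinase, was 395 and 582 against 699 and 356 CPM.

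Immediate early genes, which respond within minutes to stimulation and to tissue handling, had 0 of 18 called. At an unadjusted p under 0.05, 3 were lower and 0 higher, beside 3.4% of all genes each way. The median log2 fold change was -0.05. That median was 0.12 without uninjured library 2, -0.34 without uninjured library 1, -0.11 without PT D7 library 1 and -0.41 without PT D7 library 2. Fos was 93.3 and 199 against 53.8 and 49.4 CPM (log2 fold change -1.54, standard error 0.56, edgeR adjusted p = 0.723). Rhob, a small GTPase and the most abundant of the list, was 955 and 1105 against 699 and 731 CPM, and Hspa1a, a heat shock protein, was 42.4 and 91.6 against 89.7 and 158 CPM. Both PT D7 libraries were lower for 5 of the 18 genes (27.8%) and higher for 1 (5.56%), beside 19.1% and 16.5% of all genes. Of 10 tested genes from a list that marks activated microglia of PT D1, 5 had values above 0 and 5 below, and 0 were called. At an unadjusted p under 0.05 there were 2 lower and 0 higher, beside 3.4% of all genes each way. The 2 were Tlr7, given below, and Cebpb, a transcription factor of myeloid cells picked after its value was seen. Cebpb was 149 and 128 against 71.7 and 69.1 CPM (log2 fold change -0.96, edgeR adjusted p = 0.723). Socs3, a feedback inhibitor of cytokine signalling, was 59.4 and 65.4 against 108 and 88.9 CPM, Srgn, a proteoglycan core, was 174 and 311 against 179 and 247 CPM, and Id2, a transcription regulator, was 97.6 and 164 against 71.7 and 148 CPM. Cd300lf, a lipid-sensing receptor, was too low to test.

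No gene of the innate immune lists was called, beside 0.153% of all genes tested. No complement gene of 7 tested had an unadjusted p under 0.05, and C1qb, a chain of the C1q initiator, was 5813 and 5683 against 5542 and 6400 CPM. Itgb2, a chain of the complement receptor CR3, had the most positive value (0.38) and C3ar1, the C3a receptor, the most negative (-0.50). Of 7 Toll-like receptor genes and co-receptors, Tlr7, a sensor of single-stranded RNA, was at an unadjusted p under 0.05, at 187 and 186 against 53.8 and 109 CPM (log2 fold change -1.08, standard error 0.42, edgeR adjusted p = 0.723). Ly86, which encodes MD-1, was 1905 and 1543 against 1937 and 2301 CPM, and the adaptor Myd88 42.4 and 42.5 against 108 and 69.1 CPM. Of 6 chemokine and cytokine genes tested 0 were called, with Ccl3 at 67.9 and 85.0 against 161 and 109 CPM, Il1a at 50.9 and 29.4 against 71.7 and 88.9 CPM, and Ccl12 at 80.6 and 94.8 against 53.8 and 69.1 CPM.

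Of 33 lysosomal genes none was called or at an unadjusted p under 0.05, 9 were higher (27.3%) and 6 lower (18.2%) in both PT D7 libraries, beside 16.5% and 19.1% of all genes, and the median was 0.08. It was -0.01 without uninjured library 1, 0.02 without PT D7 library 2 and 0.04 without uninjured library 2. The proton pump subunits Atp6v1b2 and Atp6v1a held its ends, at 0.44 and -0.81. Lipid-handling genes had 0 of 7 called and a median of 0.30 (0.13 without either uninjured library), led by Apoe, with the sterol sensor Nr1h2 at -0.04. Of the TAM receptors and their ligands, which mediate uptake of apoptotic cells, 3 of 5 could be tested and 0 were called. The receptor Mertk was 471 and 536 against 448 and 444 CPM, its ligand Gas6 was 170 and 137 against 71.7 and 88.9 CPM (-0.88, interval -1.79 to 0.03), and Pros1 was 174 and 203 against 161 and 188 CPM. TGF-beta pathway genes had 0 of 11 called and a median of -0.05 (-0.18 without uninjured library 2, 0.06 without uninjured library 1), from -0.86 for the signal transducer Smad3 to 0.46 for Nrros, which presents latent TGF-beta.

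**Figure D5:**
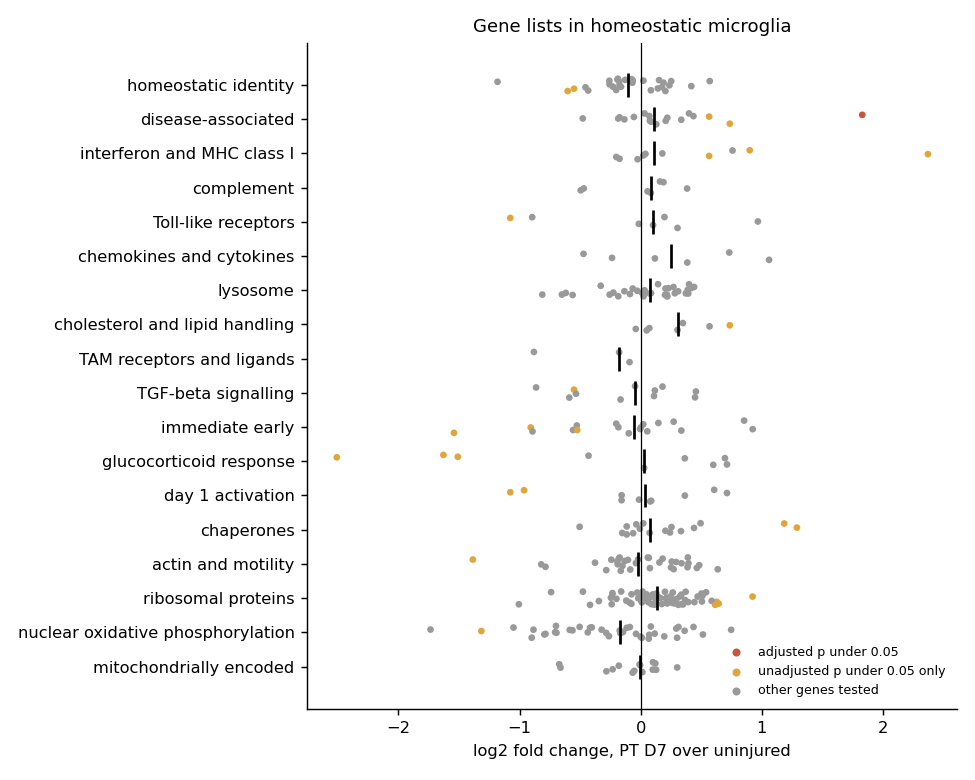
Log2 fold change of PT D7 over uninjured for the tested members of 18 gene lists, 1 point per gene, with each list's median as a vertical line. Medians lie between -0.18 and 0.30, Lgals3bp is the only called point (red), and the 3 lower points of the glucocorticoid response are Ddit4, Tsc22d3 and Fkbp5.

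No gene of the housekeeping lists was called, beside 0.153% of all genes tested. Ribosomal protein genes had 0 of 70 called and a median of 0.14, which was -0.08 without uninjured library 2. Of these genes 53 were above 0 and 17 below, beside 1317 and 1301 of all 2618 genes. At an unadjusted p under 0.05 there were 4 higher and 0 lower, beside 3.4% of all genes each way. Both PT D7 libraries were higher for 17 (24.3%) and lower for 5 (7.14%), beside 16.5% and 19.1% of all genes. Rps15 was 314 and 317 against 502 and 672 CPM (log2 fold change 0.92, edgeR adjusted p = 0.520). Nuclear oxidative phosphorylation genes had 0 of 40 called and a median of -0.17, from -1.74 for Sdhb to 0.75 for Atp5c1. Of these 14 were lower (35%) and 3 higher (7.5%) in both PT D7 libraries, beside 19.1% and 16.5% of all genes. The median was 0.12 over 25 genes without uninjured library 1 and -0.50 over 34 without uninjured library 2. It was -0.32 over 68 genes without PT D7 library 1 and -0.52 over 67 without PT D7 library 2. These fits did not test the same genes, so the values do not show the effect of a library alone. The 15 mitochondrially encoded genes had a median of -0.01 (-0.49 to 0.23 without 1 library at a time), and mt-Rnr2, a ribosomal RNA, was 46705 and 27629 against 17593 and 29342 CPM. Chaperones had 0 of 17 called, with Hspd1, a mitochondrial chaperonin, at 67.9 and 58.9 against 53.8 and 217 CPM (1.29, edgeR adjusted p = 0.723) and the stress regulator Xbp1 at -0.50. Actin and motility genes had 0 of 33 called and a median of -0.02, with the membrane linker Ezr at 67.9 and 98.1 against 35.9 and 29.6 CPM and Tmsb4x, which binds actin monomers, at 6204 and 5039 against 6277 and 5580 CPM. Glycolysis and hypoxia genes had 0 of 10 called and a median of 0.05, with Gapdh at 560.1 and 455 against 520.1 and 504 CPM. Of 5 proliferation genes tested none was called, and the libraries of a condition differed more than the conditions did: Tubb5 was 238 and 612 against 341 and 563 CPM.

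Predicted transcripts made up much of every library. Genes with Gm names took 32.8% and 36.7% of all UMIs in uninjured homeostatic cells and 35.9% and 34.2% at PT D7. Gm10800 alone was 276477 and 326794 against 296897 and 304496 CPM, a level per UMIs of the genes tested and so not a part of those shares. Of 114 such genes tested 0 were called. At an unadjusted p under 0.05, 11 were lower and 2 higher, beside 3.4% of all genes each way. The median was -0.17 (-0.37 without PT D7 library 1, -0.07 without PT D7 library 2). In both PT D7 libraries 35 were lower (30.7%) and 18 higher (15.8%), beside 19.1% and 16.5% of all genes. Among the abundant ones, Gm10717 was 9428 and 13698 against 6241 and 8730.4 CPM and Gm10715 was 3997 and 5572 against 3085 and 3654 CPM, both lower in both PT D7 libraries and picked after their values were seen. Higher in both were the pair that follows. Gm29055 was 7137 and 6821 against 9290 and 8227 CPM, and Gm37954 was 3021 and 3179 against 4232 and 3476 CPM.

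Over all genes tested, the largest rises among genes at an unadjusted p under 0.05, with a mean of at least 50 CPM and separate libraries, were Rtp4 and Lgals3bp, described above, and Ranbp1, Npnt, Dcakd and Nosip. Ranbp1, which serves nuclear transport, was 29.7 and 45.8 against 71.7 and 168 CPM, and Npnt, an extracellular matrix protein, was 33.9 and 29.4 against 143 and 79.0 CPM. By the same rule the falls after the choroid plexus genes and Ddit4 were Sult1a1, a sulfotransferase, at 89.1 and 124 against 0 and 39.5 CPM, and Ppp1cb, a phosphatase subunit, at 119 and 75.2 against 0 and 39.5 CPM. None of these beside Lgals3bp passed the test.

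Microglia of unknown function were present in every library of both conditions, so the change of the homeostatic cells was set against theirs. Disease-associated cells were also found in every library, but with only 1 and 5 cells in uninjured tissue. One uninjured sum held 6 cells, under the minimum of 10 cells set for this test, and the test was run with a minimum of 5 cells chosen after seeing the data. The change differed between the classes for 0 of 1366 genes (0%) by the quasi-likelihood test of edgeR, 52 of which had an unadjusted p under 0.05, and for 0 genes by DESeq2. Ttr fell further in homeostatic cells by 2.38 log2 units (edgeR adjusted p = 0.841), and without uninjured library 2 it was called. Enpp2 differed by -0.62 and Igf2 by -5.64, each with an edgeR adjusted p of 0.994, and Igf2 had 0 UMIs in homeostatic cells of PT D7. For Lgals3bp the difference was -1.20 (edgeR adjusted p = 0.994) and for Malat1 -0.09 (edgeR adjusted p = 0.994). Lgals3bp in the cells of unknown function was 0 and 55.0 unscaled CPM in uninjured libraries and 80.4 and 181 at PT D7. For neither Lgals3bp nor Malat1 was a difference between the classes detectable at this depth.

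The precision of the comparison followed from the depth. The median half-width of the 95% interval of a log2 fold change was 0.97 over all genes tested, 0.63 for the most abundant 655 genes and 1.27 for the least abundant 656. A count of 0 in PT D7 library 1 allowed up to 48.0 unscaled CPM, and in uninjured library 2 up to 8.10. The intervals and limits cover counting error only where they come from single libraries. The labels were drawn by the authors from the same cells, so a cell that had moved far from the homeostatic profile would carry another label and be absent from both sides of this comparison.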

How the data were processed

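Microglia and NSPCs were sorted into 384-well plates and sequenced by mCEL-Seq2. The submitters' processing notes name bcl2fastq (version 2.17.1.14) and the build GRCm39, and the authors deposited a table of UMI counts per gene and cell, with subtype labels and the percent of mitochondrial UMIs per cell as the authors computed it. The authors had filtered cells on UMI number and mitochondrial share and clustered them with Seurat, and the aligner and counting program were not stated. No deposited cell held fewer than 1001 UMIs, and 13 further columns of per-cell values were not used. No doublet caller was run here. Counts of the labelled homeostatic cells were summed per library, since cells of 1 library share their source, and library numbers come from the cell names. At PT D7 the number was read from a running index in the name, a reading that the sources do not state. With no record of separate animals, p-values measure only the spread between libraries, which may be technical. Genes were kept by filterByExpr, scaled by TMM and fitted with edgeR (version 4.0.16, R 4.3.3) over the 4 libraries with condition as the only term, and called at a Benjamini-Hochberg adjusted p under 0.05. DESeq2 (1.42.0) and limma (3.58.1) served as alternatives. Each alternative filtered genes anew, so its list medians can rest on other members than those of the main fit. The steps were tested on simulated data. Single values were compared by exact permutation over libraries (Python 3.11.15, scipy 1.17.1), and shares have exact Clopper-Pearson intervals. A count of 0 was taken to allow 3 counts. The deposited names were matched by symbol to GENCODE vM39. ERCC rows (92) held 0 UMIs and were left out.

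The members and gene lists were chosen with earlier results of these data known. Named genes were all called genes, up to 6 of the largest changes in each direction at an unadjusted p under 0.05 with a mean of at least 50 CPM and separate libraries, the genes the study names for microglia, and from each list the most abundant member and the ends of its range. Any other gene is said to have been picked after its value was seen. Equal replicate numbers were not taken as pairs, since no shared animal or day is given. The deviations of libraries numbered 1 from their condition means correlated at 0.08 across genes. That value, over mostly low counts, cannot exclude pairing. The numbers that end the cell names recur between libraries, and homeostatic cells of any pair of libraries shared 3 to 40 of them. Values of 2 members of the identity list are not reported here.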

Additional observations from a re-analysis of the deposited data

How the results depend on the processing

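The count of 4 called genes was 4 without TMM scaling and with cells of at least 2000 UMIs, 5 without mitochondrial and ribosomal genes and 3 of 449 with every cell thinned to 1000 UMIs, where Lgals3bp was too low to test. It was 2 with DESeq2, with cells of at most 10% mitochondrial UMIs, with 18 cells per library and with every library thinned to the smallest. It was 0 with limma voom (186 genes at an unadjusted p under 0.05), and 0 of 680 (58 at an unadjusted p under 0.05) where at least 10 UMIs were required in every library. That filter removes Ttr, Enpp2 and Igf2, while Lgals3bp passed it and lost its call (log2 fold change 1.74, edgeR adjusted p = 0.158). The count was 1 without cells with choroid plexus genes, 9 with the likelihood ratio test and 14 of 16042 without a filter on low counts. The thinned libraries and the choroid plexus filter were chosen after seeing the data. With replicate numbers as a block the count was 9, including the 4 genes, although no shared animal or day is given for equal numbers. With single libraries removed in turn it ran from 4 to 44: 4 without uninjured library 1, where Lgals3bp was lost, 9 without uninjured library 2, 44 (27 higher) without PT D7 library 1, and 7 (0 higher) without PT D7 library 2, where Lgals3bp was lost. In that order these fits tested 2025, 2058, 4525 and 4496 genes, and each left 1 library in a group. The cause of the spread in counts was not tested. Ttr stayed called in 16 of 17 alternatives that could test it, Enpp2 in 14 of 17, Igf2 in 10 of 12 and Lgals3bp in 8 of 17. Of 107 genes followed, no called value changed sign, and 106 uncalled values of 33 genes did.

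The difference in change between the classes gave 0 calls without TMM, without the replicate block and with DESeq2, and 0 to 1 without 1 library at a time, the 1 being Ttr without uninjured library 2. The homeostatic share was lower at PT D7 by a difference of -36.4 percentage points, and by -46.4 to -26.4 without 1 library at a time. The fit with all 3 conditions was not run, since PT D1 held 0 and 1 homeostatic cells, nor was the removal of cells with 3 or more marker genes of other types, which leaves 0 cells in uninjured library 2.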
